A study of Mus musculus with 9 samples.

Results

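The genes described here encode the TRAF adaptors Traf1, Traf2, Traf3, Traf4, Traf5 and Traf6, the TRAF-binding protein Tank, the cIAP ubiquitin ligases Birc2 (cIAP1) and Birc3 (cIAP2), and the ubiquitin-editing enzyme Tnfaip3 (A20). The members were all array probe sets annotated with 1 of these gene symbols and no other. The rule found 13 probe sets of 9 genes among 22626 probe sets. Of all these, 20380 were annotated with a single gene, and they covered 12393 genes. No probe set of Traf3, an adaptor best known for restraining the kinase Map3k14, met the rule, and Traf3 was not analysed here. TRAF proteins bind the cytoplasmic tails of activated receptors of the TNF receptor superfamily or, in the case of Traf6, complexes formed below Toll-like and interleukin-1 receptors. They recruit ubiquitin ligases, among them the cIAPs, and the ubiquitin chains so formed assemble the kinases that activate NF-kappaB. A20 edits or binds these chains and dampens the signal, and Traf1, Birc3 and Tnfaip3 are known as target genes of NF-kappaB in many cell types.

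The study hybridised total RNA of the mouse macrophage line RAW 264.7 to 9 arrays. There were 3 untreated samples, 3 samples given 100 ng/ml of bacterial lipopolysaccharide (LPS) for 18 h, and 3 samples whose labels state constitutive over-expression of CstF-64, a subunit of the cleavage stimulation factor that helps to form the 3′ ends of mRNAs. All 3 groups are the same cell line, and no other allele or agent is named in the labels. The sources used here give neither the construct, nor whether its cells were 1 clone or a pool, nor a control population for it, nor whether replicates were separate cultures. A p-value here thus sets a difference between groups against the scatter of these samples only, which may be technical. It may not extend to new cultures, and the number of arrays limits the precision. The design asks what LPS changes and what differs in the CstF-64 samples. Both comparisons use the same 3 untreated arrays.

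Cstf2, the gene of CstF-64, showed no rise in the arrays labelled CstF-64. Its brighter probe set (1419645_at) read 363.1 to 397.8 in untreated arrays, 195.9 to 248.1 after LPS and 317.9 to 394.5 in the arrays labelled CstF-64, with a log2 change of -0.08 in the latter (adjusted p = 1.00). Its other probe set (1419644_at) read 100.2 to 134.1 in untreated arrays, 107.0 to 136.1 after LPS and 80.4 to 97.1 in the arrays labelled CstF-64. Its change in the arrays labelled CstF-64 was -0.36 (adjusted p = 0.763). After LPS the brighter probe set changed by -0.74 (adjusted p = 0.00343 by limma) and the other by 0.03 (adjusted p = 0.940). A probe set outside the expressed sequence would not register a construct, and the construct's sequence is not given. Macrophage markers were present in every array: all 9 (Adgre1, Cd68, Csf1r, Itgam, Spi1, Lyz2, Cd14, Fcgr3 and Tyrobp) read between 108.6 and 6632.9. Array medians lay between 42.75 and 49.3 after LPS and between 51.1 and 54.2 in the other arrays. LPS array 1 had the lowest mean r to its own group across probe sets (0.966). CstF-64 array 1 (0.975) was lower than the other 2 arrays of its group (0.982 and 0.983) but close to LPS array 2 (0.977), and the range over the arrays other than these first ones was 0.977 to 0.985. The mean r of CstF-64 array 1 to the untreated group was 0.979.

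After 18 h of LPS, 2 of the 9 genes rose: Traf1, by 3.68 on the log2 scale, and Birc3, by 1.31. No member fell. Levels are deposited intensities, and means carry the SD of 3 arrays. Changes were estimated with limma on log2(intensity + 13), a scale that understates the change of dim probe sets. "Rose" and "fell" mean an adjusted p under 0.05. Of all probe sets, 5.93% rose and 10.7% fell, and 2 of the 13 member probe sets rose. The members were chosen with earlier results of these data known. An unadjusted p under 0.05 was found for 4 of the 13 and for 28.8% of all probe sets. The median change of the members was 0.28, against -0.04 for all probe sets. The balance of all calls depended on the scaling: rises made up 35.7% of all calls as deposited, 46.2% after quantile normalization and 60.5% after centring each array on its median, with a median change of all probe sets of -0.04, 0.01 and 0.12. The background limit, 31.2, is the highest value of any Bacillus control probe set: 8 of the 13 member probe sets were above it in all arrays of at least 1 group, and 2 were at or below it in all 9 arrays. Levels of different probe sets are not compared with each other, because brightness depends on the probes. In such bulk RNA a change in the share of cells that express a gene and a change in RNA per cell cannot be told apart.

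The start-site windows of Traf1, Birc3 and Tnfaip3 are shown because these members were named above as known NF-kappaB target genes, and 2 of them rose. Other members may be such targets too. Each is the RefSeq window of GRCm38.p6 from 250 bases before to 50 bases after an annotated start, read 5′ to 3′ on the strand of the gene. Capitals mark matches to the kappaB consensus on either strand. The windows lie at chr2:34961723-34962022 (minus strand) for Traf1, at chr9:7873121-7873420 (minus strand) for Birc3 and at chr10:19015361-19015660 (minus strand) for Tnfaip3. Tnfaip3 has a second annotated window, at chr10:19011914-19012213 (minus strand), which holds no match and is not printed. The Tnfaip3 window printed is therefore the one chosen for its matches.
Traf1: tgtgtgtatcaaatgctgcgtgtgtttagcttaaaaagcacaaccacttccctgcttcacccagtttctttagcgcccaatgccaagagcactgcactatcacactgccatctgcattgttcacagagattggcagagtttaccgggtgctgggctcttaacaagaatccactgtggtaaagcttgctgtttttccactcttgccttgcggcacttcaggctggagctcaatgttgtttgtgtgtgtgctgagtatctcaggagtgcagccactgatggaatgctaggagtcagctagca
Birc3: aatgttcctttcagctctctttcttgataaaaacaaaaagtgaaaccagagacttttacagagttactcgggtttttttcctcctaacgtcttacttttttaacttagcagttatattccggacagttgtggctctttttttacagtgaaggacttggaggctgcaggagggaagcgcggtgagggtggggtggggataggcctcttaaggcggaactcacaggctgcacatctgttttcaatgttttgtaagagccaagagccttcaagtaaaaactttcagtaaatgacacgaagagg
Tnfaip3: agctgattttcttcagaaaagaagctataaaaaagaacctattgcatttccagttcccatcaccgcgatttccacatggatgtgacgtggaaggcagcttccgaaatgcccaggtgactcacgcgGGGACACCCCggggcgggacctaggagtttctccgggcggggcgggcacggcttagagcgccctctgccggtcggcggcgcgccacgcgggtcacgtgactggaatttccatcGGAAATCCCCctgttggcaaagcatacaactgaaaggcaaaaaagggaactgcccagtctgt
The printed Tnfaip3 window holds 2 matches, GGGACACCCC at bases 126 to 135 and GGAAATCCCC at bases 239 to 248 of the window, and the Traf1 and Birc3 windows hold none. The consensus occurred in 4.51% of 32851 windows of all genes and in 4 of the 15 windows of the 10 genes named at the start. These 4 windows belong to 3 of the 10 genes: Tank, Tnfaip3 and Traf3. The Tank windows among them overlap and hold the same site, GGGGCTTTCC, which is thus counted more than once. A looser motif that contains it, GGGNNNNNCC on either strand, occurred in 50.8% of all windows and in 12 of the 15 windows, among them that of Birc3 (GGGATAGGCC at bases 194 to 203) but not that of Traf1. The matches are letters in these windows and were not measured as binding sites. Sequence outside the windows was not searched, so a window without a match does not show that its gene lacks such a site.

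**Figure D1:**
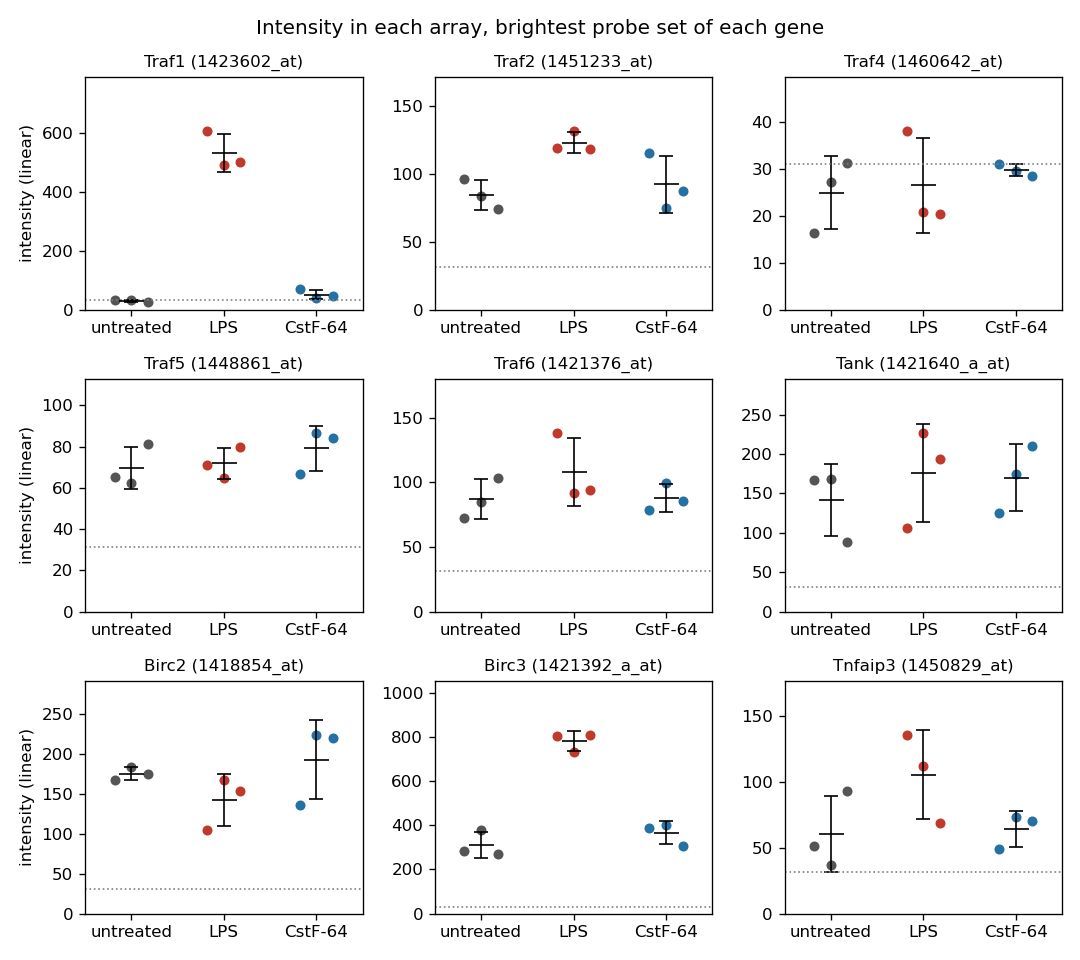
Intensity (linear scale, y axis from 0) of the brightest probe set of each of the 9 measured genes in each array, by group on the x axis. Points are single arrays, bars show the mean ± SD of 3 arrays, and the dotted line is the background limit of 31.2. The 3 LPS arrays stand clear of all other arrays for Traf1 (490.4 to 607.1) and Birc3 (730.1 to 810.2).

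Traf1 is a TRAF protein without the RING domain of its relatives, and it acts mainly through complexes with Traf2 and the cIAPs. Its probe set (1423602_at, chromosome 2) read 31.8, 32.4 and 24.5 in the untreated arrays, 607.1, 490.4 and 501.8 after LPS, and 68.4, 38.8 and 45.8 in the arrays labelled CstF-64. All LPS arrays lay far above all others, while the untreated arrays sat at the background limit: 2 were just above it and 1 was below. The group mean went from 29.6 ± 4.40 to 533 ± 64.3, a ratio of 18.0 that depends on a denominator close to background. The log2 change was 3.68 (SE 0.19, 95% interval 3.25 to 4.11, adjusted p = 3.7e-06). It stayed between 3.19 and 4.13 under 18 other settings, with an adjusted p of at most 6.0e-05.

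The arrays labelled CstF-64 read 51.0 ± 15.5 for Traf1, and each of the 3 was above each untreated array. The log2 change was 0.57 (SE 0.19, 95% interval 0.14 to 0.99), with an unadjusted p of 0.0142 and an adjusted p of 0.555, so the difference was not called. Traf1 was the only one of the 13 member probe sets whose groups did not overlap in this comparison, where 6.67% of all probe sets were higher without overlap. Under the 18 other settings the change ran from 0.38 to 0.74 and the adjusted p from 0.389 to 0.943. The order of the Traf1 level was LPS, then CstF-64, then untreated. The step from LPS to CstF-64 passed the test (log2 -3.11, adjusted p = 8.7e-06) and the step from CstF-64 to untreated did not.

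Birc3 encodes cIAP2, which binds the Traf1 and Traf2 complex and attaches ubiquitin chains to signalling proteins such as Ripk1. Its brighter probe set (1421392_a_at, chromosome 9) read 284.0, 377.4 and 271.9 in the untreated arrays, 806.3, 730.1 and 810.2 after LPS, and 388.3, 403.4 and 307.0 in the arrays labelled CstF-64. The LPS arrays were all above the rest, and the untreated and CstF-64 arrays overlapped. The mean went from 311 ± 57.7 to 782 ± 45.2 after LPS, a ratio of 2.51. The log2 change was 1.31 (SE 0.15, 95% interval 0.97 to 1.65, adjusted p = 0.000366), and it ran from 1.22 to 1.46 under the 18 other settings, with an adjusted p of at most 0.00285. In the arrays labelled CstF-64 the mean was 366 ± 51.9, a log2 change of 0.23 (95% interval -0.11 to 0.57, adjusted p = 0.927). Against the LPS arrays that level was lower by a log2 change of -1.08 (adjusted p = 0.00126).

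A second Birc3 probe set (1425223_at) read between 1.7 and 17.2 in all 9 arrays, below the background limit throughout. Its log2 change after LPS was 0.19 (adjusted p = 0.688). The 2 Birc3 probe sets changed unequally after LPS by limma's diffSplice F test (adjusted p = 0.0420), a call made for 5.59% of the 4956 genes with at least 2 probe sets. The call was lost in 9 of 17 other settings (adjusted p from 0.00227 to 0.561), among them the fits without untreated array 1 or 3, any 1 LPS array, or CstF-64 array 1. A probe set below background gives only a bound on its transcript, and this inequality is no measure of transcript choice. The probe sets of Traf4 and Traf6, the other member genes with several, were not called by the same test (adjusted p = 0.867 and 0.967).

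Birc2, which encodes cIAP1, a close relative of cIAP2 with the same partners, was not called after LPS. Its probe set (1418854_at, chromosome 9) read 166.7, 182.9 and 174.8 in the untreated arrays, 104.8, 167.5 and 153.3 after LPS, and 135.4, 223.4 and 218.8 in the arrays labelled CstF-64. LPS array 1 was the lowest of the 9, and LPS array 2 lay within the untreated range. The log2 change after LPS was -0.30 (95% interval -0.78 to 0.18, adjusted p = 0.410). In the arrays labelled CstF-64 it was 0.10 (95% interval -0.38 to 0.58, adjusted p = 1.00), with CstF-64 array 1 below the untreated arrays and the other 2 above them. The difference between the Birc2 and Birc3 changes was not tested.

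Traf2 is the adaptor that carries the cIAPs to TNF receptors. Its probe set (1451233_at, chromosome 2) read 96.1, 83.7 and 73.9 in the untreated arrays, 118.9, 131.7 and 118.6 after LPS, and 115.5, 74.5 and 87.0 in the arrays labelled CstF-64. Every LPS array was above every untreated and CstF-64 array, with means of 123 ± 7.48 after LPS, 84.6 ± 11.1 in untreated cells and 92.3 ± 21.0 in the arrays labelled CstF-64. The log2 change after LPS was 0.48 (SE 0.17, 95% interval 0.10 to 0.87), a ratio of means of 1.46, and its adjusted p of 0.0865 missed the threshold. It was called under 4 of the 18 other settings: quantile normalization (0.66, adjusted p = 0.0315), median centring (0.64, adjusted p = 0.0390), testing only probe sets above background (0.48, adjusted p = 0.0484) and leaving out CstF-64 array 1 (adjusted p = 0.0479). The arrays labelled CstF-64 differed from untreated by 0.10 (adjusted p = 1.00). Traf2, Traf1 and Birc3 were the 3 member probe sets whose LPS arrays all lay above the untreated arrays, a pattern that 12.2% of all probe sets showed.

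Traf6 is the adaptor of the LPS receptor pathway below Myd88 and the Irak kinases. Its brightest probe set (1421376_at, chromosome 2) read 72.8, 85.0 and 103.5 in the untreated arrays, 138.5, 91.9 and 94.5 after LPS, and 78.9, 99.7 and 85.7 in the arrays labelled CstF-64. Only LPS array 1 exceeded the untreated range. The log2 change was 0.27 after LPS (95% interval -0.16 to 0.69, adjusted p = 0.412) and 0.02 in the arrays labelled CstF-64 (95% interval -0.40 to 0.45). The second probe set (1421377_at) read 22.9 to 32.7 in untreated arrays, 31.1 to 50.8 after LPS and 28.1 to 39.5 in the arrays labelled CstF-64, and LPS array 1 was again the highest. Its change after LPS was 0.36 (adjusted p = 0.280). The third (1435350_at) was at or below background in 8 of 9 arrays and changed by 0.49 after LPS (adjusted p = 0.479).

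Traf5, a relative of Traf2 that serves receptors such as Cd40, overlapped in all 3 groups. Its probe set (1448861_at, chromosome 1) read 65.4, 62.5 and 81.2 in the untreated arrays, 71.2, 64.8 and 79.6 after LPS, and 66.5, 86.7 and 84.2 in the arrays labelled CstF-64. Means were 69.7 ± 10.1, 71.9 ± 7.42 and 79.1 ± 11.0, with a log2 change after LPS of 0.04 (95% interval -0.33 to 0.41, adjusted p = 0.917) and of 0.16 in the arrays labelled CstF-64 (adjusted p = 0.995). Traf4, a TRAF protein with roles mainly outside immune receptor signalling, was near or below background. Its brighter probe set (1460642_at, chromosome 11) read 16.4 to 31.3 in untreated arrays, 20.5 to 38.2 after LPS and 28.5 to 31.1 in the arrays labelled CstF-64, at or below 31.2 in 7 of 9 arrays. Its change after LPS was 0.05 (adjusted p = 0.924). The other Traf4 probe set (1416571_at) read 2.6 to 4.2 in all arrays. Its LPS arrays lay below its untreated arrays without overlap, as those of 21.2% of all probe sets did, but both groups were below background.

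Tank binds Traf proteins and the kinases Tbk1 and Ikbke. Its probe set (1421640_a_at, chromosome 2) read 167.3, 168.9 and 88.4 in the untreated arrays, 106.5, 227.1 and 194.1 after LPS, and 125.0, 174.8 and 210.4 in the arrays labelled CstF-64. Its spread within groups was wide, and all 3 groups overlapped. The log2 change was 0.28 after LPS (95% interval -0.42 to 0.98, adjusted p = 0.634) and 0.27 in the arrays labelled CstF-64 (95% interval -0.43 to 0.97, adjusted p = 0.998).

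Tnfaip3, whose product A20 removes or edits ubiquitin chains on Traf6 and Ripk1, did not pass the test after 18 h of LPS. Its probe set (1450829_at, chromosome 10) read 51.6, 37.1 and 92.6 in the untreated arrays, 135.6, 112.3 and 68.5 after LPS, and 48.8, 73.4 and 70.3 in the arrays labelled CstF-64. LPS arrays 1 and 2 were above all others, but LPS array 3 fell below untreated array 3. The mean was 60.4 ± 28.8 in untreated cells and 105 ± 34.1 after LPS, a ratio of 1.75. The log2 change was 0.72 (SE 0.31, 95% interval 0.03 to 1.40), with an unadjusted p of 0.0422 and an adjusted p of 0.154. Under the 18 other settings it ran from 0.48 to 1.01 and the adjusted p from 0.0540 to 0.424. The arrays labelled CstF-64 read 64.2 ± 13.4, a change of 0.13 (95% interval -0.56 to 0.81, adjusted p = 1.00).

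**Figure D2:**
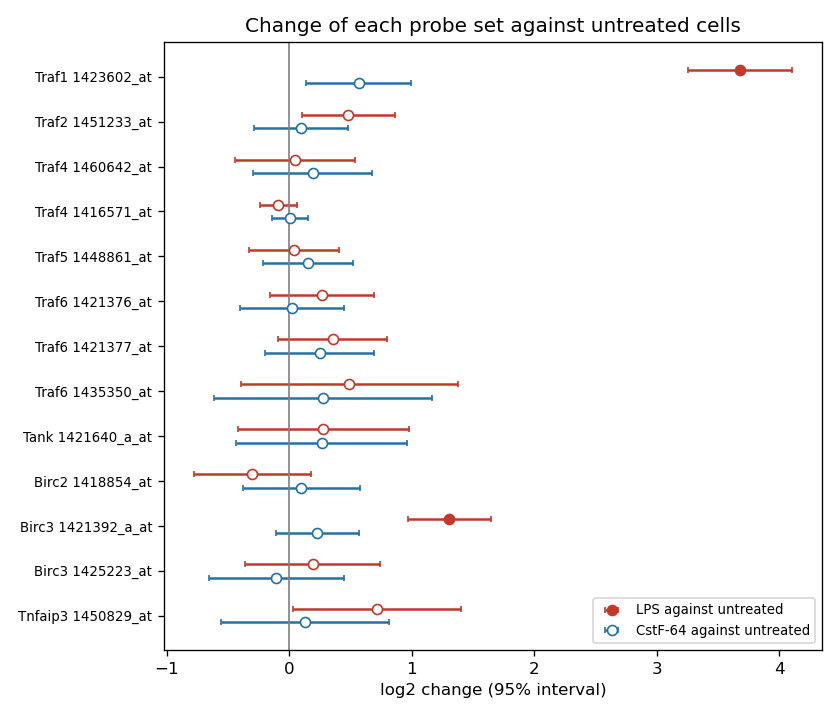
Log2 change against untreated cells (x axis) of each of the 13 member probe sets (y axis), for LPS in red and for the arrays labelled CstF-64 in blue. Points are limma estimates from 3 arrays a group, lines are 95% intervals, and filled points passed an adjusted p of 0.05. Only Traf1 (3.68) and the brighter Birc3 probe set (1.31) passed, both after LPS.

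In the comparison of the arrays labelled CstF-64 with untreated cells, 0 of the 13 member probe sets were called by limma, and 1 had an unadjusted p under 0.05 (Traf1). Of all probe sets 0.102% were called higher and 0.146% lower, and 6.45% had an unadjusted p under 0.05. The member changes ran from -0.10 to 0.57 with a median of 0.16, against 0.00 for all probe sets. Against the LPS arrays, the arrays labelled CstF-64 were lower for Traf1 and Birc3 and for no other member, while 5.79% of all probe sets were called lower and 9.43% higher. Traf2, like 11.4% of all probe sets, lay lower than after LPS in all 3 arrays, without being called (log2 -0.39, adjusted p = 0.175), and Tnfaip3 changed by -0.59 (adjusted p = 0.253).

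**Figure D3:**
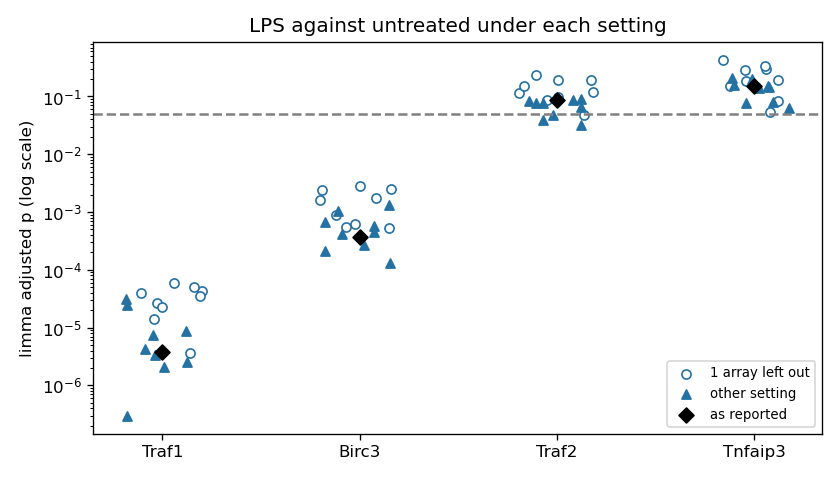
Adjusted p of LPS against untreated (y axis, log scale) for 4 members on the x axis, under the reported setting (diamond), 9 fits with 1 array left out (circles) and 9 other settings (triangles). The dashed line marks 0.05. Traf1 and Birc3 lie below it under every setting, Traf2 under 4 of 18 and Tnfaip3 under 0 of 18.

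The other genes of the pathway were taken from 5 lists with 72 genes, of which 60 were measured, each by its brightest probe set. After LPS 17 of the 60 rose and 3 fell, or 28.3% and 5.0%. Of all genes 6.67% rose and 10.4% fell. The lists were chosen with earlier results of these data known, so these shares do not test the pathway. The median change of the 60 was 0.21, against -0.03 for all genes. The falls were Rbck1, Otulin and Traip. In the arrays labelled CstF-64, 0 of the 60 were called against untreated by limma (lowest adjusted p = 0.324). Of all genes 0.105% were called higher and 0.169% lower. An unadjusted p under 0.05 was found for 5 of the 60 and for 6.45% of all probe sets.

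Among 12 receptors and ligands that use these adaptors, 4 rose and 0 fell (median 0.55). Tnfrsf1b, the TNF receptor that binds Traf2 directly, read 97.4, 165.5 and 188.6 in untreated arrays and 3526.4, 2448.9 and 2416.1 after LPS, a log2 change of 4.13 (adjusted p = 4.5e-06). The ligand gene Tnf went from 173 ± 99.5 to 3828 ± 1047 (log2 4.53, adjusted p = 0.000592), although untreated array 2 read 60.0 and the other untreated arrays 213.7 and 246.3. Cd40, a receptor for the T-cell ligand Cd40lg, went from 36.9 ± 5.20 to 205 ± 45.7 (log2 2.11, adjusted p = 7.5e-05). Its untreated array 1 (31.0) and its 3 arrays labelled CstF-64 (22.2, 28.6 and 31.0) were below the background limit of 31.2. The ligand gene Tnfsf9 went from 257 ± 19.7 to 630 ± 3.54 (log2 1.25, adjusted p = 0.000273). For all 4 genes every LPS array was above every untreated array. In the arrays labelled CstF-64 the level was 133 ± 6.70 for Tnfrsf1b, 27.3 ± 4.55 for Cd40, 232 ± 45.5 for Tnfsf9 and 244 ± 204 for Tnf, none of them called against untreated.

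Among 20 measured adaptors and kinases, 3 rose and 0 fell (median 0.21). Cflar, which encodes the caspase-8 regulator cFLIP, went from 151 ± 46.6 to 580 ± 95.1 (log2 1.88, adjusted p = 0.000503). The 2 kinases that bind Tank also rose: Ikbke from 41.2 ± 11.0 to 173 ± 56.1 (log2 1.76, adjusted p = 0.000962), and Tbk1 from 218 ± 18.6 to 381 ± 40.8 (log2 0.77, adjusted p = 0.00302). Tab2, which links ubiquitin chains to the kinase Map3k7, was not called (log2 0.31, adjusted p = 0.0953), except after median centring (0.47, adjusted p = 0.0294).

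The list of ubiquitin enzymes, A20 partners and IAP relatives also held the RNase gene Zc3h12a. Of the 14 measured genes of this list, 3 rose and 2 fell (median 0.02). Zc3h12a, an RNase that degrades cytokine mRNAs, read 7.2, 11.8 and 13.3 in untreated arrays, all below background, and 236.3, 171.0 and 168.4 after LPS, at least 6.07-fold higher against the background limit (adjusted p = 1.0e-05). Tnip1, an A20-binding protein, went from 319 ± 62.0 to 1162 ± 216 (log2 1.82, adjusted p = 8.5e-05). Rnf11, described as part of an A20 complex, went from 346 ± 24.2 to 563 ± 79.9 (log2 0.68, adjusted p = 0.00740). Rbck1, a subunit of the linear ubiquitin ligase, fell from 230 ± 29.7 to 139 ± 16.0 (log2 -0.67, adjusted p = 0.0170), a call lost without untreated array 1 (adjusted p = 0.0630) and without LPS array 3 (adjusted p = 0.0641). Otulin, which removes linear chains, fell from 282 ± 20.1 to 201 ± 13.2 (log2 -0.46, adjusted p = 0.0273), a call lost in 7 of 19 other settings (adjusted p up to 0.102). Otulin was named to complete the count, after its values were seen.

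Among 9 measured NF-kappaB and IkappaB genes, 6 rose and 0 fell (median 1.34). Nfkbiz, a nuclear IkappaB protein, read 41.8, 46.7 and 55.1 in untreated arrays and 1299.9, 728.7 and 729.8 after LPS (log2 3.89, adjusted p = 2.8e-05). Bcl3, another nuclear IkappaB protein, went from 46.8 ± 2.77 to 198 ± 21.4 (log2 1.82, adjusted p = 3.9e-05). Nfkbia, the inhibitor IkappaB-alpha, went from 2151 ± 147 to 5481 ± 694 (log2 1.34, adjusted p = 0.000146), and the subunit Nfkb2 from 107 ± 13.5 to 321 ± 66.9 (log2 1.47, adjusted p = 0.000303). With the mean of its probe sets in place of the brightest, the change of Nfkb2 was 0.71 (adjusted p = 0.0197). The rises were completed by the inhibitors Nfkbib (log2 1.55, adjusted p = 0.00047) and Nfkbie (log2 0.58, adjusted p = 0.0404), both named after their values were seen. The call of Nfkbie was lost in 9 of 19 other settings (adjusted p up to 0.138).

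Of 5 measured genes that are named after TRAF proteins or TNF receptors and are not among the members, 1 rose and 1 fell (median -0.21). Trafd1, which encodes an interferon-induced zinc finger protein, read 119.8, 126.9 and 147.7 in untreated arrays and 246.4, 196.7 and 247.8 after LPS (log2 0.75, adjusted p = 0.00586). Traip, a ubiquitin ligase of DNA replication and repair, read 38.6, 33.8 and 17.0 in untreated arrays and 2.5, 9.8 and 3.7 after LPS, all below background (adjusted p = 0.00579). The untreated arrays lay close to the background limit, and no size is given for this fall: the fitted log2 value ran from -2.38 to -0.56 with the setting. Its arrays labelled CstF-64 read 37.5, 31.8 and 33.8. Traf7 (log2 -0.25, adjusted p = 0.221) and Trap1 (log2 -0.21, adjusted p = 0.319) were not called.

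**Figure D4:**
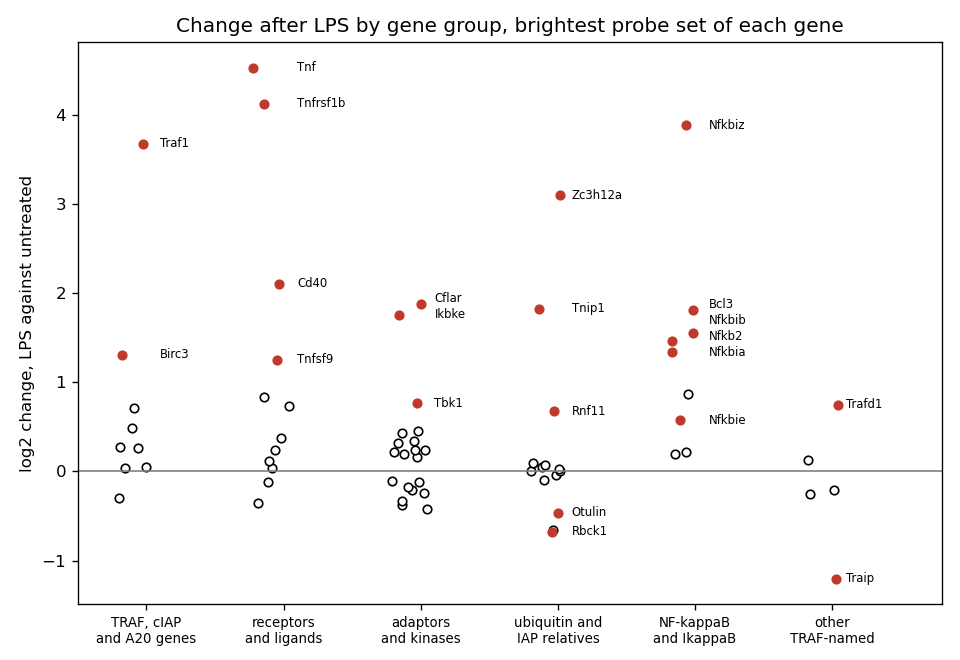
Log2 change of LPS against untreated cells (y axis) of each gene by its brightest probe set, for the 9 measured TRAF, cIAP and A20 genes and the 5 pathway lists on the x axis. Filled red points passed an adjusted p of 0.05 and carry their name, and open points did not. The counts of rises against falls are 6 and 0 for NF-kappaB and IkappaB genes, 4 and 0 for receptors and ligands, 3 and 0 for adaptors and kinases, 3 and 2 for ubiquitin and IAP relatives, and 1 and 1 for the other TRAF-named genes.

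Markers of other cells were followed beside these changes. The sum of 5 fibroblast markers was 85.6 to 114.9 in untreated arrays, 134.6 to 142.9 after LPS and 94.8 to 105.1 in the arrays labelled CstF-64. Of these 5, 4 were at or below background in all untreated arrays and 3 in all LPS arrays, and Dcn alone was called after LPS. Dcn was below background in all untreated arrays and at least 1.48-fold higher after LPS against the background limit. The sum of 5 measured lymphocyte markers was 84.7 to 98.9, 76.9 to 116.4 and 73.7 to 111.0 in the 3 groups, with none called. The sum of the 9 macrophage markers was 15724.6 to 21616.9 in untreated arrays, 20777.6 to 24044.9 after LPS and 17252.8 to 20907.9 in the arrays labelled CstF-64. After LPS 3 of these 9 rose (Adgre1, Itgam and Cd14) and 1 fell (Csf1r), while 6.67% of all genes rose and 10.4% fell. The sum is carried by the brightest genes and can hide single markers. In the arrays labelled CstF-64 none was called against untreated by limma. An unadjusted p under 0.05 was found for 3 of the 9 and for 6.45% of all probe sets. These 3, all lower, were Adgre1 (log2 -1.15, adjusted p = 0.0777), Itgam (-0.48, adjusted p = 0.576) and Fcgr3 (-0.69, adjusted p = 0.701). Against the LPS arrays 4 of the 9 were called lower (Adgre1, Itgam, Cd14 and Fcgr3) and 1 higher (Csf1r), beside the lower Traf1 and Birc3. Of all probe sets 5.79% were called lower and 9.43% higher. The part of these markers in the differences of Traf1 and Birc3 was not tested.

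The genes whose level ran most nearly parallel to a member were sought over the 9 arrays, among 7900 genes above background in all arrays of at least 1 group, and their r is a description of arrays that share groups and scaling. For Traf1 these were Bst2 (Pearson r = 0.996), Ifi202b (0.993) and Slfn2 (0.992), with Bst2 going from a mean of 141 in untreated cells to 1357 after LPS. For Birc3 they were Acadsb (0.988), Clic4 (0.987) and Bcl3 (0.971), with Clic4 going from 1246 to 1938. For Tnfaip3 they were Vapa (0.927), Mgarp (0.918) and Acbd3 (0.914), with means in untreated cells and after LPS of 880 and 965 for Vapa, and of 65.4 and 97.0 for Mgarp. Bcl3 is the 1 gene of these 9 that also stands in a pathway list. Probe sets whose identifier ends in _s_at or _x_at (here those of Tbk1, Nfkbib, Ifi202b and Acadsb) may also match transcripts of other genes.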

How the data were processed

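RNA of 9 samples was measured on 9 arrays. The deposited values are intensities on a linear scale, 1 per probe set and array. The sources used here name no software, background correction or scaling for these deposited intensities. RNA was prepared with Ultraspec and the arrays were run at a core facility, per the labels.

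Of 22690 probe sets, 64 controls were left out. The mean of each array after trimming 2% from each end was close to 150.1 and values were kept as deposited. They were transformed to log2(intensity + 13), 13 being 0.25 of the median of all values (50.2), rounded. A model with one mean per group (limma 3.58.1 in R 4.3.3; lmFit, then eBayes with an intensity trend) used all 9 arrays. Tests were two-sided, adjusted by Benjamini-Hochberg over 22626 probe sets, with a threshold of 0.05. Unequal probe sets of a gene were tested with diffSplice over 4956 genes. The fits were also run on simulated data with independent noise and changes planted in the LPS group only. That run does not bear on the arrays labelled CstF-64. The background limit, 31.2, is the highest value of 27 Bacillus control probe sets, and "at least N-fold" is measured against it.

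Symbols came from a platform annotation, updated to GRCm38.p6 (20380 probe sets with 1 gene, 691 with several, 1555 with none). All 10 genes matched the RefSeq window table.

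Members and lists were chosen with earlier results of these data known. Text names every member probe set, Cstf2, up to 4 genes per pathway list by adjusted p after LPS, and the 3 most parallel genes of Traf1, Birc3 and Tnfaip3. The alternatives were quantile normalization, median centring, pseudocounts of 1 and 32, a filter on dim probe sets, eBayes without trend or robust, only the arrays compared, the mean of a gene's probe sets, a replicate block, and leaving out each array.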

Additional observations from a re-analysis of the deposited data

How the results depend on the processing

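The calls of Traf1 and Birc3 after LPS, and their lower level in the arrays labelled CstF-64 than after LPS, held under all 18 settings, 9 of which left out 1 array. Of 687 member changes recomputed, 657 kept direction and side of the threshold, 4 passed it (Traf2 after LPS, given above) and 26 turned in sign, none with an adjusted p under 0.584. Outside the fits with 1 array left out, 6 turned. Under median centring these were Traf4 1416571_at after LPS (0.067) and between CstF-64 and LPS (-0.059), Traf4 1460642_at between CstF-64 and LPS (-0.014) and Traf5 between CstF-64 and LPS (-0.042). Under quantile normalization they were Traf5 between CstF-64 and LPS (-0.048) and Traf4 1416571_at between CstF-64 and untreated (-0.0013). With 1 array left out, the change after LPS ran from -0.024 to 0.14 for Traf5 and from -0.15 to 0.17 for Traf4 1460642_at. Between CstF-64 and untreated it ran from -0.0042 to 0.026 for Traf4 1416571_at, -0.017 to 0.32 for Birc2, -0.085 to 0.14 for Traf6 1421376_at, -0.080 to 0.70 for Traf6 1435350_at, -0.012 to 0.46 for Tank, -0.33 to 0.15 for Birc3 1425223_at, -0.11 to 0.42 for Tnfaip3 and -0.055 to 0.22 for Traf2. Between CstF-64 and LPS it ran from -0.21 to 0.057 for Traf6 1421377_at, -0.57 to 0.21 for Traf6 1435350_at and -0.31 to 0.19 for Tank. The causes were not tested.

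The 17 pathway rises ranged from 16 to 18 with 1 array left out and from 16 to 21 otherwise, and the 3 falls from 1 to 4 and from 2 to 4, with 1 fall left without untreated array 1 or LPS array 3. The count of member genes with unequal probe sets after LPS (1, Birc3) was 0 under quantile normalization, median centring and a pseudocount of 1, and 0 to 1 with 1 array left out. Between CstF-64 and LPS it was 0, and 1 with a pseudocount of 32. The filter on dim probe sets left no member gene with several probe sets and gave no value there. Over all probe sets, the calls between CstF-64 and untreated (23 higher, 33 lower) ranged from 8 to 53 and from 10 to 57 with 1 array left out, lowest without untreated array 2 and highest without CstF-64 array 1. Median centring gave 2228 rises and 1455 falls after LPS, against 1341 and 2414, and 1249 higher and 2097 lower between CstF-64 and LPS, against 2133 and 1310. With 1 array left out, calls ranged from 924 to 1465 higher and 1475 to 2653 lower after LPS, and from 1239 to 2067 higher and 854 to 1255 lower between CstF-64 and LPS.

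The labels do not say whether replicate numbers pair the samples. Same-numbered arrays of different groups correlated in their deviations at r = -0.06 to 0.16 (9 pairs, mean 0.05). Differently numbered ones correlated at -0.24 to 0.20 (18 pairs, mean -0.02). The ranges overlap and cannot settle whether the samples were paired. With the replicate number as a block, member calls stayed at 2 higher and 0 lower after LPS, 0 and 0 between CstF-64 and untreated, and 0 and 2 between CstF-64 and LPS, and over all probe sets 13 were higher and 19 lower between CstF-64 and untreated. Probe sets near background, Traf1 in untreated cells and both of Traf4 among them, limit the folds that can be given.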

Other observations

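Tnfrsf9, a TNF receptor that signals through Traf1 and Traf2, was singled out after its values were seen, for its spread within groups. Its brightest probe set (1460469_at) read 121.7, 80.8 and 237.5 in untreated arrays, 646.6, 115.6 and 198.8 after LPS, and 189.3, 789.3 and 690.5 in the arrays labelled CstF-64. LPS array 1 was well above the other LPS arrays, and CstF-64 array 1 was well below the other CstF-64 arrays and within the untreated range. A second probe set (1428034_a_at) read 146.3, 28.0 and 41.5 after LPS and 13.7, 218.1 and 220.4 in the arrays labelled CstF-64, with the same arrays standing apart. The third (1421481_at) was at or below the background limit in 8 of 9 arrays, and read 31.3, 17.8 and 19.1 after LPS and 22.3, 18.1 and 19.2 in the arrays labelled CstF-64, where array 1 was not the lowest. The log2 change between CstF-64 and untreated was 1.72 for the first (unadjusted p = 0.0273, adjusted p = 0.671 by limma), 1.93 for the second (adjusted p = 0.751) and -0.19 for the third, and none was called. LPS array 1 (0.966) and CstF-64 array 1 (0.975) also had the lowest mean correlation with their own groups across all probe sets. The latter was close to LPS array 2 (0.977). A link between these correlations and the Tnfrsf9 levels was not tested.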
